A study of Mus musculus with 15 samples.

Results

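This report describes 10 genes of the EGF receptor (ErbB) system in the mouse colon: the receptors Egfr, Erbb2 and Erbb3 and the ligands Areg, Ereg, Hbegf, Tgfa, Btc, Egf and Nrg1. They were found by gene name on the array, which held 27 probes for them among 41174 probes in all. Of those 27 probes, 22 were kept by the filter on dim spots, and all 10 genes had at least 1 kept probe among the 21301 genes tested.

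The samples were areas of colon cut by laser capture from frozen sections of female Swiss Webster mice. All mice had received azoxymethane (AOM), a colon carcinogen, at 7.4 mg/kg, and 3 cycles of 4% dextran sulfate sodium (DSS), which injures the colon lining; a cycle was 7 days of DSS and 21 days of water. They were 7 weeks old at the start, 9 weeks old at the first DSS cycle and 18 weeks old at sacrifice. The 4 groups of 2 mice each were polypoid tissue of mice given 5-aminosalicylic acid (5-ASA, an anti-inflammatory drug) at 75 mg/kg, polypoid tissue of untreated mice, inflamed tissue of mice given 5-ASA, and inflamed tissue of untreated mice. Since every group carried AOM and DSS, none was a healthy colon, and the untreated mice are a control for 5-ASA alone, given vehicle in the study's design. The captured RNA was amplified in 2 rounds and hybridised beside a universal mouse reference RNA, so each value is the log2 ratio of sample over reference. Ratios compare the groups for a probe and do not rank genes by level.

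The median sample signal of the 15 arrays was 148.6 to 257.2 scanner units over a median background of 41 to 63, and 57.3% to 90.8% of spots were well above background. Scan times fell into 4 sessions. Session 1 held both inflamed replicate 1 mice, session 2 both polypoid replicate 1 mice, and session 3 the replicate 2 mice of the 5-ASA polypoid, untreated polypoid and untreated inflamed groups. The only array of the second 5-ASA inflamed mouse was scanned alone, in session 4. Session 3 alone thus held both tissues, and it held no inflamed tissue of a 5-ASA mouse. The 10 markers of epithelium were all measured, with a mean log2 ratio of 2.71 to 3.46 in polypoid and 3.08 to 3.47 in inflamed mice. The 7 measured neutrophil markers of 8 averaged 1.88 to 2.84 in polypoid mice against 0.18 to 0.54 in inflamed mice, with 5 of them called higher; Camp was not measured. Of these 7, 1 was well above background on all arrays and 5 were kept by the filter only through polypoid groups, so the inflamed mean holds signals near background and the count of calls is no support. Smooth muscle markers, 8 of 8 measured, averaged 0.57 to 1.17 in polypoid mice against 1.35 to 3.52 in inflamed mice, with 4 called lower. B and plasma cell markers, 7 of 7 measured, averaged 0.35 to 1.85 in polypoid mice against 1.60 to 3.56 in inflamed mice, with 1 called lower. The 6 measured T cell markers of 7 averaged -1.69 to -1.29 in polypoid mice against -1.26 to -0.93 in inflamed mice, with 0 called by limma. The 8 of enteric neurons and glia averaged -0.57 to -0.47 against -0.34 to 0.19, with 1 called lower. This list and the smooth muscle list each held 1 marker kept only through inflamed groups, which limits their counts too. Of all genes, 3.97% were called higher and 1.97% lower, so 0 or 1 among so few markers is near the background. The means of fibroblast, macrophage, endothelium and mast cell markers overlapped between the tissues. The part of these cell types in the values below was not tested, and in such bulk samples fewer cells of a type and less RNA per cell cannot be told apart.

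ErbB receptors are tyrosine kinases of the cell surface that pair up when a ligand binds. Egfr binds Egf, Tgfa and Areg; Btc, Ereg and Hbegf are ligands of Egfr and of Erbb4; Nrg1 binds Erbb3 and Erbb4. Erbb2 has no known ligand and serves as the preferred partner, while Erbb3 has little kinase activity of its own and recruits PI3 kinase when paired. In the gut the system is known for driving crypt growth and repair of the epithelium after injury.

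Across polypoid and inflamed tissue of both treatment arms, none of the 10 genes passed the test, limma with a Benjamini-Hochberg adjusted p under 0.05 over all genes. At an unadjusted p under 0.05 there were 2, Btc and Egf, beside 4944 of the 21301 genes, so the members' share was no larger than that of all genes. The background was 1265 of 21301 genes called, 5.94%, with 3.97% of all genes called higher and 1.97% called lower in polypoid tissue. The median log2 difference was 0.02 over the 10 genes and -0.02 over all genes tested, and 6 of the 10 had a positive difference. In untreated mice alone no member was called, beside 0.164% of all genes, and in mice given 5-ASA no member was called, beside 3.06% of all genes. With 2 mice a group, the intervals below reflect the spread between mice in a fit without scan session. They do not cover differences between sessions, which nearly separated the tissues. Some values given below with scan session as a block lie outside the intervals. That fit left fewer residual degrees of freedom than the 4 of the main fit. Its power is low, so an absent call in it settles little.

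**Figure D1:**
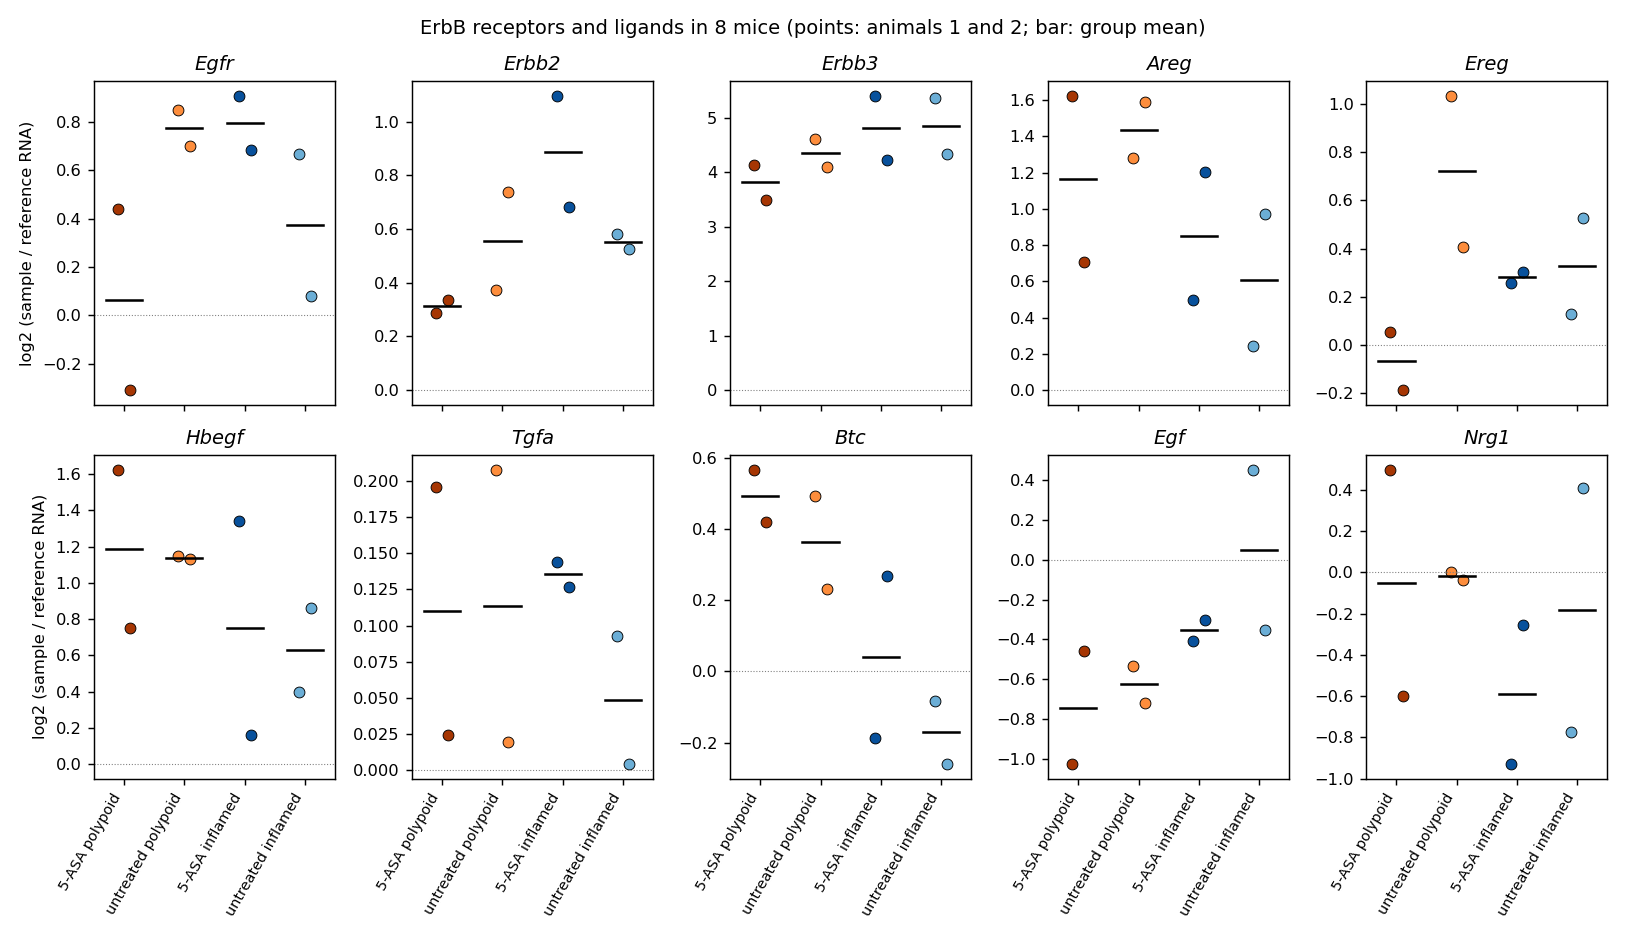
Log2 ratio of sample over reference RNA (vertical axes, each with its own range) for the 10 genes in 5-ASA polypoid, untreated polypoid, 5-ASA inflamed and untreated inflamed mice; points are the 2 mice of a group and bars their mean. Polypoid and inflamed mice overlap for every gene except Egf, whose 4 polypoid values lie at -0.46 or below and whose 4 inflamed values lie at -0.41 or above.

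The receptor Egfr was read by 5 kept probes. Its brightest, filed under the transcript NM_207655, stood at 0.44 and -0.31 in 5-ASA polypoid mice and at 0.85 and 0.70 in untreated polypoid mice. In inflamed tissue it stood at 0.91 and 0.68 in 5-ASA mice and at 0.67 and 0.08 in untreated mice. The 5-ASA polypoid mice thus held the lowest and the third lowest value, and the polypoid and inflamed ranges overlapped. The difference of polypoid over inflamed tissue was -0.16 ± 0.21 log2 units (SE, n = 4 mice each, 95% interval -0.69 to 0.36, limma adjusted p = 0.701). In mice given 5-ASA alone it was -0.73 ± 0.30 (limma adjusted p = 0.266), and in untreated mice alone 0.40 ± 0.30 (limma adjusted p = 0.619). Within session 3 polypoid over inflamed tissue was 0.11, and no session held both tissues of 5-ASA mice.

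A second Egfr probe, A_51_P392242, filed under NM_007912, had a smaller spread between mice. It read 0.40 and 0.12 in 5-ASA polypoid mice and 0.81 and 0.81 in untreated polypoid mice. In inflamed tissue it read 0.98 and 1.07 in 5-ASA mice and 0.75 and 0.83 in untreated mice. Both 5-ASA polypoid mice lay below all 6 other mice. With every kept probe as a row of its own, its difference of polypoid over inflamed tissue under 5-ASA was -0.77 ± 0.14 (limma adjusted p = 0.0542), short of the threshold. Over both arms it was -0.37 ± 0.10 (limma adjusted p = 0.0928). The 3 other Egfr probes had differences over both arms of 0.24, 0.38 and -0.01, so the probes of Egfr did not share a direction, and both probes filed under NM_207655 disagreed with each other.

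**Figure D2:**
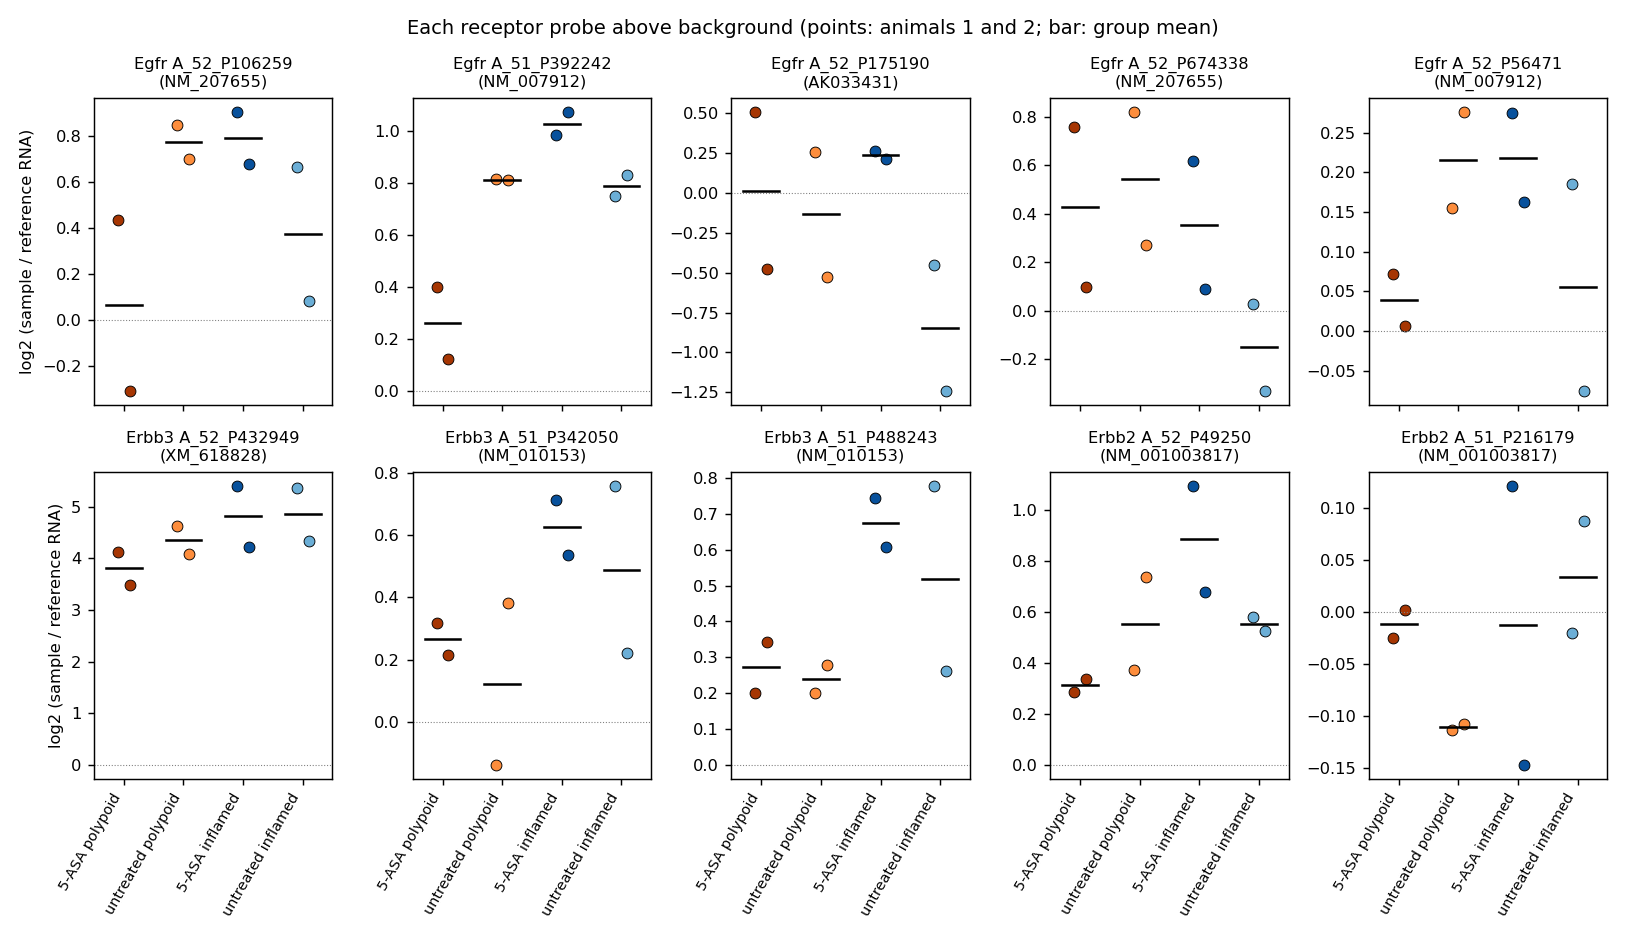
Log2 ratio of sample over reference (vertical axes, each with its own range) for each kept receptor probe, with its array accession, in 5-ASA polypoid, untreated polypoid, 5-ASA inflamed and untreated inflamed mice; points are mice and bars group means. The second Egfr probe sets the 5-ASA polypoid mice, at 0.40 and 0.12, below the other 6, and the first Erbb3 probe lies far above the further Erbb3 probes.

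Erbb2, the partner receptor without a ligand, read 0.29 and 0.34 in 5-ASA polypoid mice and 0.37 and 0.74 in untreated polypoid mice. In inflamed tissue the values were 1.1 and 0.68 in 5-ASA mice and 0.58 and 0.53 in untreated mice. Under 5-ASA the polypoid pair lay below the inflamed pair, while among untreated mice the polypoid values lay on either side of the inflamed pair. The difference over both arms was -0.29 ± 0.14 (95% interval -0.62 to 0.05, limma adjusted p = 0.280), and under 5-ASA it was -0.58 ± 0.20 (unadjusted p = 0.0248, limma adjusted p = 0.181). Within session 3 polypoid over inflamed tissue was 0.01, and no session held both tissues of 5-ASA mice. The second, dimmer Erbb2 probe gave 0.00 ± 0.14 under 5-ASA, without the gap of the first probe there. It was well above background on 12 of 15 arrays.

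Erbb3, the receptor that couples to PI3 kinase, had a polypoid over inflamed difference of -0.75 in the main values. Its brightest probe read 4.13 and 3.49 in 5-ASA polypoid mice and 4.62 and 4.09 in untreated polypoid mice. The inflamed values were 5.41 and 4.22 in 5-ASA mice and 5.37 and 4.34 in untreated mice. In each of the 4 groups replicate 1 was above replicate 2, and the ranges of both tissues overlapped. The SE of that difference was 0.37 (95% interval -1.65 to 0.14, a 1.68-fold lower mean in polypoid tissue, limma adjusted p = 0.288). It lay between -1.05 and -0.44 over the alternatives tried, with no change of sign, and was -0.55 within session 3. With the replicate number as a block it passed (limma adjusted p = 0.0407), while with scan session as a block it did not (-0.57, limma adjusted p = 0.362).

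That Erbb3 probe was filed under XM_618828, an accession that could not be matched in the gene table used here, and its ratios were far above those of the further Erbb3 probes. The 2 other kept probes, filed under NM_010153, ranged from -0.14 to 0.78 over all mice. Their differences of polypoid over inflamed tissue were -0.36 ± 0.17 and -0.34 ± 0.14 (limma adjusted p = 0.289 and 0.215 with every kept probe as a row) and neither passed. Within session 3 these 2 probes gave 0.08 and 0.05, against -0.55 for the bright probe. They were dim, with an average log2 brightness of 6.65 and 6.45 over both channels, against 10.18 for the bright probe. Their sample channel was well above background on 12 and 11 of 15 arrays. The offset of the background correction draws a dim probe's ratio toward 0, so agreement with the bright probe could not be judged. The second dim probe, A_51_P488243, was kept by the filter only through the 5-ASA inflamed group, where it was highest, so its sign is no support. The genes whose pattern over the 8 mice was most like that of the bright Erbb3 probe, which had an SD of 0.66 over the mice, were Cd52, Pdzd3 and Adgrg7. Their root mean square differences from it, after each gene was centred, were 0.14, 0.15 and 0.16.

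The Btc (betacellulin) probe was dim, and its sample channel cleared background on 8 of 8 polypoid arrays but on 4 of 7 inflamed arrays. It was kept by the filter only through the polypoid groups, where it was higher, so the test on it is not independent of the filter. It read 0.57 and 0.42 in 5-ASA polypoid mice and 0.49 and 0.23 in untreated polypoid mice. In inflamed tissue it read -0.19 and 0.27 in 5-ASA mice and -0.08 and -0.26 in untreated mice. Only the second 5-ASA inflamed mouse, at 0.27, reached above the lowest polypoid mouse. The difference was 0.49 ± 0.14 (limma adjusted p = 0.101), which did not pass.

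In the scanner's own background-subtracted signals, which carry no offset, the Btc values were 1.44 and 0.91 in 5-ASA polypoid mice and 1.85 and 0.93 in untreated polypoid mice, against -0.55 and 0.70 in 5-ASA inflamed mice and -0.36 and -1.53 in untreated inflamed mice. The fitted difference was 1.71 with a limma adjusted p of 0.0351, the 1 member call by that setting. Its size rests on inflamed signals of which 3 of 7 did not clear background, and the same limit from the filter holds, so it is given as a value of that setting only. Within session 3 the difference with the offset was 0.59. A second Btc probe was well above background on 1 of 15 arrays and was not tested.

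Egf, the founding ligand of the family, was the only member whose polypoid and inflamed values did not overlap, a separation that 16.3% of all genes also had. It read -1.03 and -0.46 in 5-ASA polypoid mice and -0.53 and -0.72 in untreated polypoid mice. The inflamed values were -0.41 and -0.30 in 5-ASA mice and 0.45 and -0.35 in untreated mice. The gap between both tissues was small, and the first untreated inflamed mouse stood well above the rest. The difference was -0.53 ± 0.22 (95% interval -1.06 to -0.00, unadjusted p = 0.0499, limma adjusted p = 0.215). Without the first untreated inflamed mouse it was -0.33, with the scanner's own signals -0.85, and with scan session as a block 0.19, of opposite sign. Within session 3 the Egf difference was -0.24, of the same sign as the main value.

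Areg (amphiregulin) read 1.62 and 0.71 in 5-ASA polypoid mice and 1.28 and 1.59 in untreated polypoid mice. The inflamed values were 0.49 and 1.20 in 5-ASA mice and 0.25 and 0.97 in untreated mice. Among untreated mice both polypoid values were above both inflamed values, while the 5-ASA pairs overlapped. The difference over both arms was 0.57 ± 0.29 (95% interval -0.14 to 1.29, limma adjusted p = 0.309), with a mean 1.49-fold higher in polypoid tissue. It was 0.18 within session 3 and 0.06 with scan session as a block.

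Hbegf, a ligand that also binds heparin, read 1.62 and 0.75 in 5-ASA polypoid mice and 1.15 and 1.13 in untreated polypoid mice. In inflamed tissue it read 1.34 and 0.16 in 5-ASA mice and 0.40 and 0.86 in untreated mice. Within the 5-ASA groups the 2 mice differed by more than the tissues did. The difference was 0.47 ± 0.32 (95% interval -0.31 to 1.25, limma adjusted p = 0.439). It was -0.39 with scan session as a block and 0.08 within session 3.

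Ereg (epiregulin) had 0.02 ± 0.18 for polypoid over inflamed tissue (95% interval -0.41 to 0.46, limma adjusted p = 0.957). Tgfa had 0.02 ± 0.10 (95% interval -0.22 to 0.26, limma adjusted p = 0.928), and all 8 mice lay between 0.00 and 0.21. Tgfa was dim, with an average log2 brightness of 6.78 over both channels, against 12.99 for Ereg, and a dim probe's ratio is drawn toward 0 by the offset used in the background correction. With the scanner's own signals the Tgfa difference was 0.12.

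Nrg1, the neuregulin that binds Erbb3, read 0.50 and -0.60 in 5-ASA polypoid mice and 0.00 and -0.04 in untreated polypoid mice. The inflamed values were -0.93 and -0.25 in 5-ASA mice and -0.78 and 0.41 in untreated mice. Mice of 1 group differed by more than 1 log2 unit in 2 of the groups, so no tissue stood apart. The difference was 0.35 ± 0.36 (95% interval -0.53 to 1.23, limma adjusted p = 0.615), and -0.72 within session 3. The 3 further kept Nrg1 probes gave 0.23, 0.26 and 0.21, and none passed; those with 0.26 and 0.21 were kept only through the 5-ASA polypoid group, where they were highest, so their signs are no support. Nearest to Nrg1 in pattern over the 8 mice were Cdk5rap2, Wdr31 and Dnph1, at root mean square differences of 0.21, 0.21 and 0.21 beside an SD of 0.53 for Nrg1 itself.

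Epgn, Ereg, Areg and Btc are neighbouring genes in the mouse reference table. Their differences of polypoid over inflamed tissue were -0.00 ± 0.21 for Epgn, 0.02 ± 0.18 for Ereg, 0.57 ± 0.29 for Areg and 0.49 ± 0.14 for Btc, and none passed the test. Of the 4 tested genes among the 5 further receptors and ligands (Erbb4, Epgn, Nrg2, Nrg3 and Nrg4) none was called either, with a median of -0.12. Erbb4, the receptor for neuregulins and several Egfr ligands, came nearest, at -0.16 and -0.09 in 5-ASA polypoid mice and -0.01 and 0.28 in untreated polypoid mice, against 1.0 and 0.61 in 5-ASA inflamed mice and 0.30 and 0.62 in untreated inflamed mice. Every polypoid mouse was thus below every inflamed mouse for Erbb4, as for Egf, a separation that 16.3% of all genes also had. The nearest values of the tissues, 0.28 and 0.30, were almost equal. The Erbb4 difference was -0.62 ± 0.14 (limma adjusted p = 0.0617).

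**Figure D3:**
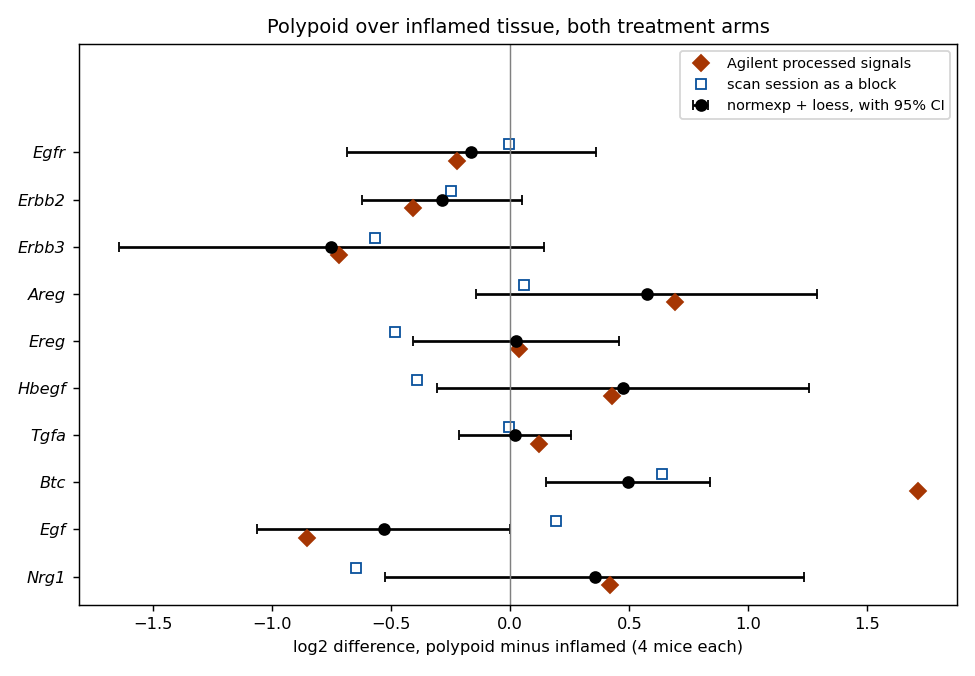
Log2 difference of polypoid minus inflamed tissue (horizontal axis, 4 mice each) for the 10 genes; black points with bars are the normexp and loess values with their 95% intervals, diamonds the scanner's own processed signals and open squares the fit with scan session as a block. Btc moves to 1.71 with processed signals, and the session block puts Egf, Ereg, Hbegf, Nrg1 and, by little, Tgfa on the other side of 0.

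For 5-ASA over untreated mice, no member was called in both tissues together (0% of all genes called, limma; 1361 genes and 0 members at an unadjusted p under 0.05), in polypoid tissue (0% called, 1655 genes and 1 member at that p) or in inflamed tissue (0% called, 934 genes and 0 members). The median log2 difference of the 10 genes was -0.18 in polypoid tissue, against 0.01 over all genes, and 0.10 in inflamed tissue, against -0.02 over all genes. In polypoid tissue 2 of the 10 differences were positive, and in inflamed tissue 6.

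The 1 member with an unadjusted p under 0.05 was Ereg in polypoid tissue. Ereg read 0.05 and -0.19 in 5-ASA polypoid mice, against 1.04 and 0.41 in untreated polypoid mice. In inflamed tissue it read 0.26 and 0.30 in 5-ASA mice, against 0.13 and 0.53 in untreated mice. Both 5-ASA polypoid mice were lower than every other mouse, and the inflamed pairs overlapped. The difference in polypoid tissue was -0.79 ± 0.25 (95% interval -1.40 to -0.18, 1.73-fold lower under 5-ASA, unadjusted p = 0.0195, limma adjusted p = 0.606). It was -0.98 within session 2 and -0.60 within session 3, each of which held a mouse of both arms. Without the first untreated polypoid mouse it was -0.47. A second, dimmer Ereg probe, filed under another transcript accession, gave -0.00 ± 0.15.

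Egfr in polypoid tissue had a 5-ASA over untreated difference of -0.71 ± 0.30 (95% interval -1.45 to 0.03, limma adjusted p = 0.650), with -0.41 within session 2 and -1.01 within session 3. The second Egfr probe gave -0.55 ± 0.14 (limma adjusted p = 0.577 with every kept probe as a row), with -0.42 and -0.69 in those sessions. In inflamed tissue Egfr had a difference of 0.42 ± 0.30 (95% interval -0.32 to 1.16, limma adjusted p = 0.975). Without the second 5-ASA polypoid mouse, the polypoid difference was -0.34, so that mouse carried much of its size.

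**Figure D4:**
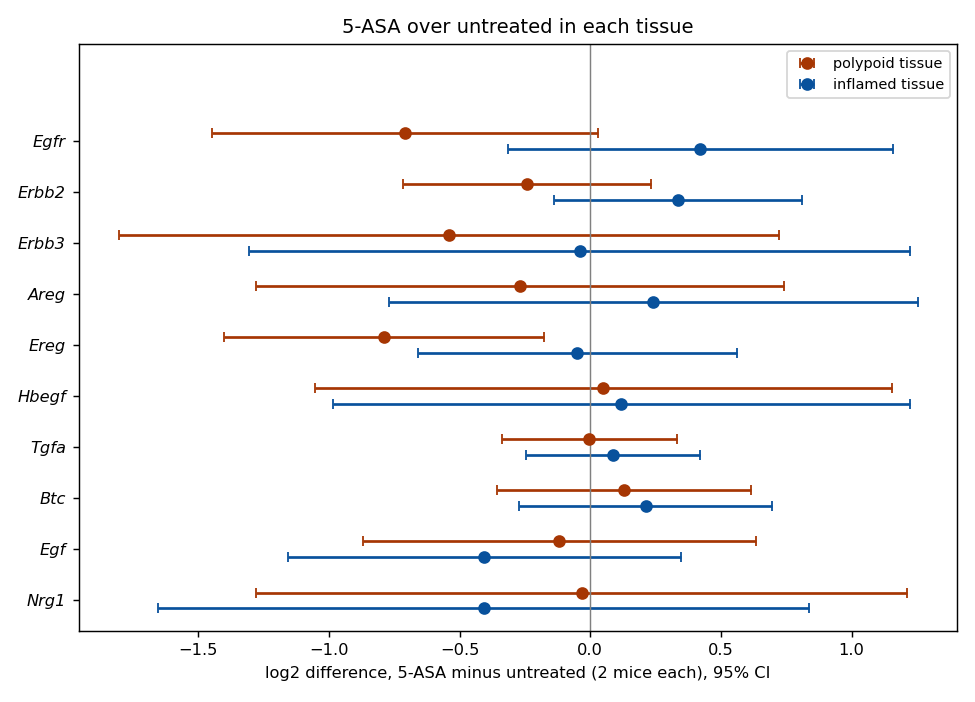
Log2 difference of 5-ASA minus untreated mice (horizontal axis, 2 mice each) for the 10 genes in polypoid tissue and in inflamed tissue, with 95% intervals. The interval leaves out 0 only for Ereg in polypoid tissue, from -1.40 to -0.18, and Egfr lies at -0.71 in polypoid and 0.42 in inflamed tissue.

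Whether the 5-ASA difference itself depended on the tissue was tested as an interaction, polypoid minus inflamed. No member was called (0% of all genes called, limma; 1273 genes and 1 member at an unadjusted p under 0.05). That member was Egfr, at -1.13 ± 0.43 (95% interval -2.17 to -0.09, unadjusted p = 0.0378, limma adjusted p = 0.818). The other Egfr probes gave -0.79, -0.94, -0.34 and -0.62, so all 5 kept probes had the same sign, though they were read in the same 8 RNA samples. Leaving out single mice moved the Egfr value between -1.50 and -0.75, and its unadjusted p (limma) did not stay under 0.05 in each of those fits. With scan session as a block, or with the mean of a gene's probes, 0 members had an unadjusted p under 0.05 (limma). Erbb2 had -0.58 ± 0.28 and Ereg -0.74 ± 0.36, neither with an unadjusted p under 0.05.

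The lists of pathway genes around these receptors were read from the same fit for polypoid over inflamed tissue. They were chosen with earlier results of these data known, so a count above the share of all genes is no support by itself. Of the 8 tested genes among 9 that release or process the ligands, 3 rose in polypoid tissue and 0 fell, beside 3.97% of all genes called higher and 1.97% called lower, with a median of 0.20 log2 units against -0.02 over all genes. Mmp7, a secreted protease known to cut cell-surface proteins, read 3.88 and 4.30 in 5-ASA polypoid mice and 4.89 and 4.50 in untreated polypoid mice, against 0.13 and 0.96 in 5-ASA inflamed mice and 0.55 and 0.12 in untreated inflamed mice. The tissues were far apart, at a 15.5-fold difference (3.95 ± 0.23, limma adjusted p = 0.00343), and the difference was 4.28 within session 3. Furin, which cuts precursors of proteases and ligands, rose 1.84-fold (limma adjusted p = 0.0376), and Rhbdf2, which helps the sheddase Adam17 mature, rose 1.93-fold (limma adjusted p = 0.0475). The sheddases themselves had differences of -0.00 ± 0.12 for Adam17 and 0.31 ± 0.17 for Adam10, neither called. Leaving out any 1 of the 8 mice left 1 gene of the list called, Mmp7, as did averaging the probes of a gene. Of 19 alternatives Furin passed in 9 and Rhbdf2 in 5. With scan session as a block, a fit of low power, 0 genes were called, here and on the whole array.

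Of the 18 tested feedback inhibitors among 19, 2 rose and 1 fell in polypoid tissue, beside 3.97% of all genes called higher and 1.97% called lower, with a median of 0.16. Dusp4, a phosphatase of MAP kinases, read 1.61 and 1.78 in 5-ASA polypoid mice and 0.60 and 0.64 in untreated polypoid mice, against -2.16 and -1.89 in 5-ASA inflamed mice and -2.01 and -1.51 in untreated inflamed mice. It was above its inflamed values in every polypoid mouse, 8.27-fold on average (3.05 ± 0.14, limma adjusted p = 0.00241), and 2.72 log2 units higher within session 3. Socs3, an inhibitor of cytokine receptor signalling, rose 4.90-fold (limma adjusted p = 0.00971). Lrig3, a membrane protein of a family that includes the Egfr inhibitor Lrig1, fell by 2.03 log2 units (limma adjusted p = 0.0232). Spred2, an inhibitor of Ras signalling, was 0.74 ± 0.17 higher without passing (limma adjusted p = 0.0648). Without the first 5-ASA inflamed mouse 1 gene was called, Dusp4, and without any other single mouse 2 or 3.

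None of the 27 genes that carry the signal inward was called by limma, with a median of 0.06; with 5.94% of all genes called, a count of 0 among so few genes is near the background. The smallest p values belonged to Araf at -0.39 ± 0.09 (limma adjusted p = 0.0668), Ptpn11 at 0.55 ± 0.17 (limma adjusted p = 0.123), Nras at 0.53 ± 0.18 (limma adjusted p = 0.157) and Shc1 at 0.39 ± 0.14 (limma adjusted p = 0.160). Araf is a kinase below Ras, Ptpn11 a phosphatase and Shc1 an adaptor between the receptors and Ras.

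Of the 20 tested early targets of ErbB and MAP kinase signalling, 7 rose in polypoid tissue and 0 fell, beside 3.97% and 1.97% of all genes, with a median of 0.58. Phlda1, induced by growth factors, read 4.05 and 4.64 in 5-ASA polypoid mice and 3.65 and 3.09 in untreated polypoid mice, against 0.17 and 1.08 in 5-ASA inflamed mice and -0.07 and 0.34 in untreated inflamed mice. Its mean was 11.1-fold higher in polypoid tissue, with no overlap (3.48 ± 0.27, limma adjusted p = 0.00492). Ier3, an immediate early gene, rose 8.29-fold, Cd44, a receptor for hyaluronan, rose 3.87-fold and Ccnd1, the cyclin of G1 phase, rose 2.37-fold (limma adjusted p = 0.0108, 0.00959 and 0.0177). The other 3 called genes, Jun, Myc and Etv5, fall outside the naming rule and were named after their values were seen. Their differences were 0.78, 1.89 and 0.59. The genes not called, also outside that rule, ran from -0.44 for Klf6 to 2.14 for Ptgs2, with -0.17 for Ier2 and 0.30 for Fos. Of all 20 genes, 16 had a positive difference. The called genes are also targets of other pathways, such as Wnt and cytokine signalling. The neutrophil markers given above had higher means in the same mice, with the limit from the filter stated there. The part of either was not tested. All 13 called genes of the lists were well above background on every array.

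In untreated mice alone 0 of the 20 early targets were called, beside 0.164% of all genes, and under 5-ASA 3 were, beside 3.06% of all genes, so the counts in each arm differ as those of the whole array do. The count over both arms was 2 without the first 5-ASA inflamed mouse, 3 without the second 5-ASA polypoid mouse and 4 without either the first 5-ASA polypoid or the second 5-ASA inflamed mouse. With scan session as a block it was 0, while within session 3 the differences were 3.52 for Phlda1, 3.37 for Ier3, 2.73 for Cd44 and 1.51 for Ccnd1. For 5-ASA over untreated mice, no gene of the 5 lists was called in either tissue.

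**Figure D5:**
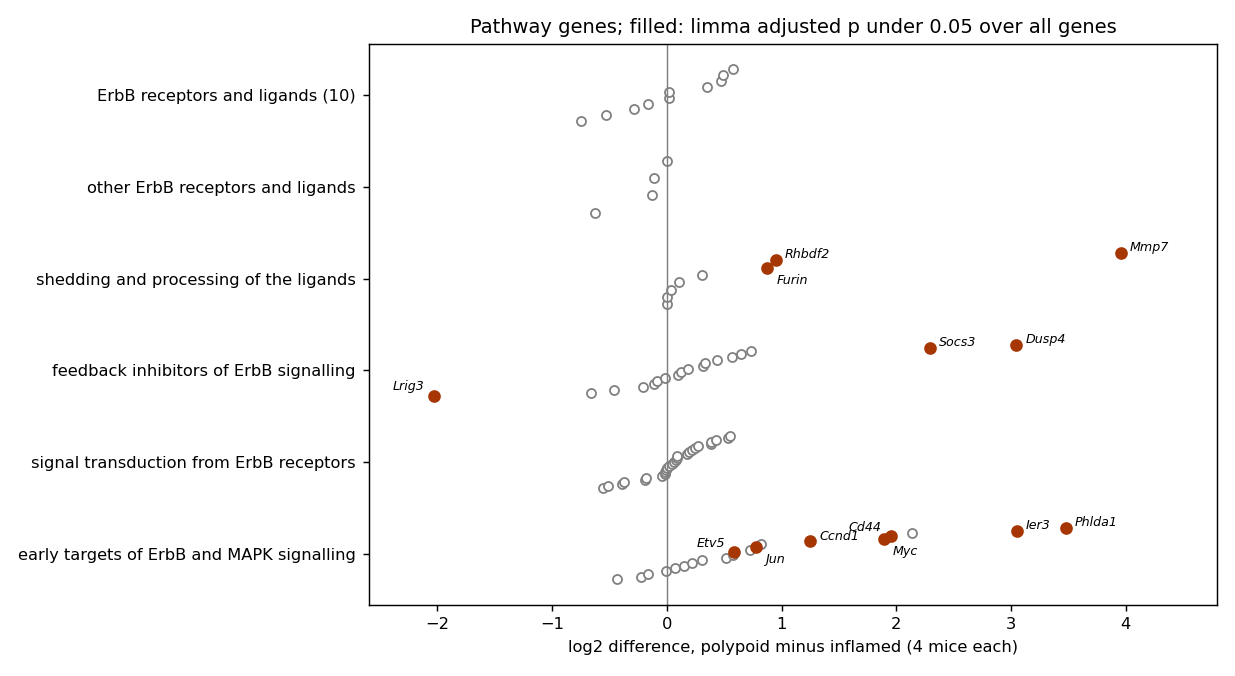
Log2 difference of polypoid minus inflamed tissue (horizontal axis, 4 mice each) for the 10 receptors and ligands and for 5 lists of pathway genes; filled points passed limma at an adjusted p under 0.05 over all genes, open points did not, and points are spread vertically by rank within a list. No receptor or ligand is filled, against 3 filled genes in the shedding list, 3 among the feedback inhibitors and 7 among the early targets. The genes shown were chosen with earlier results of these data known.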

How the data were processed

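The 15 two-colour arrays came from 8 mice; 7 had a dye swap, and those arrays count as 1 replicate. The deposited scanner files hold intensity values per spot, read with Agilent Feature Extraction 9.1.1.1 per the file headers. The deposited value table holds log2 sample over reference, made by steps not given in the sources used here. Column medians lay between -0.012 and 0.031 and the table followed the values computed here (r of 0.998 or above); it served as an alternative. The deposited files also hold the software's log10 ratio of red over green, per the file headers, used to find the table's scale. P-values measure the spread between these mice, which also holds differences between scan sessions. Nothing is stated on shared cages or litters.

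The computation used limma 3.58.1, statmod 1.5.0 and R 4.3.3. The background step was normexp (offset 50) and the dye step loess within arrays, leaving out 2256 control spots and flagged outliers. Swapped arrays were turned, and a fit of animal plus dye gave 1 value per mouse. A probe was kept if some group had it well above background on all its arrays; the brightest kept probe stands for a gene. limma compared 4 group means (4 residual degrees of freedom, prior 2.14), with Benjamini-Hochberg over 21301 genes and a threshold of 0.05; intervals are 95%. The script was tested on simulated data. Names came from the array and a RefSeq table (GRCm38.p6) used for names and neighbours only.

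All members are named, and up to 4 genes of each list by smallest p for polypoid over inflamed tissue. Members and lists were chosen with earlier results of these data known. Alternatives covered signal source, normalization, dye term, filter, flagged spots, probe choice, prior, replicate number, scan session and single mice left out.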

Additional observations from a re-analysis of the deposited data

How the results depend on the processing

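Of the 7 comparisons, 6 kept a count of 0 members called under every alternative fitted. For polypoid over inflamed tissue in both arms the count was 1 with the Agilent processed signals (Btc) and 1 with the replicate block (Erbb3, limma adjusted p = 0.0407); the replicate block changed no other member's call. Same-numbered mice correlated at 0.034 to 0.363 in their deviations from the group means, over 0.1 in 4 of 6 pairs and not in every pair, so the numbers were not taken to pair the mice. They follow the scan sessions, however, with replicate 1 in sessions 1 and 2 and replicate 2 in sessions 3 and 4. The block raised the calls over all genes to 1788, against 1265 without it, and to 1088 in 5-ASA mice, against 651. Leaving out single mice kept all 7 counts of members at 0. Aquantile between arrays leaves log ratios as they are by construction. A normexp offset of 10 and a fit with every kept probe as a row were chosen after seeing the data, as were the same alternatives for the pathway lists; the first 2 called 0 members.

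Genes called over the whole array in both arms numbered 0 with scan session as a block (limma; 3055 at an unadjusted p under 0.05) and 127 to 1326 with single mice left out. In untreated mice the 35 calls became 118 with processed signals, 22 with the value table, 11 with no filter, 17 with the replicate block, 0 with the session block and 0 to 34 with single mice left out. In 5-ASA mice the 651 calls became 1088 with processed signals, 419 with the value table, 0 with the session block and 0 to 891 with single mice left out. For 5-ASA over untreated polypoid tissue the processed signals called 1 gene, no member.

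The list counts were 0, 0 and 0 with the session block for ligand shedding, feedback inhibitors and early targets, and 1 for ligand shedding with the mean of a gene's probes. With single mice left out they ranged from 1 to 1, 1 to 3 and 2 to 7. The session block left fewer residual degrees of freedom than the main fit, so its counts of 0 do not show that differences are absent. No called difference changed sign. Uncalled member differences changed sign in 15 of 70 with the session block and in 9 of 30 within session 3. Precision is limited by 2 mice a group and, for Btc, by signals near background.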
